A study of Saccharomyces cerevisiae with 8 samples.

Results

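Hydrophilins and stationary phase genes were examined in 2 yeast strains (Saccharomyces cerevisiae) that ferment xylose, at 2 stages of batch fermentation. They were taken as 10 genes, SIP18, GRE1, HSP12, STF2, SPG1, SPG4, RTC3, DDR2, SPI1 and YRO2, found by their systematic names among the 6170 genes listed in any library. All 10 were found, and all 10 were among the 5921 genes tested. The filter asks for enough counts in 1 group only. SPG1, with 7 or 8 reads in each XH7 library, passed it only through BSGX001, so its strain differences describe a gene kept for its BSGX001 level. The 10 genes were chosen by their expression in these same libraries, that is with their levels and changes over strain and stage known. Their values over strain and stage are therefore a description, given with approximate standard errors and no p-values. The counts of genes past the limits carry no weight as support.

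BSGX001 is a haploid strain of the CEN.PK laboratory lineage with a rumen-derived xylose isomerase, an overexpressed xylulokinase, pentose phosphate pathway genes placed at GRE3, and a deletion of COX4, which encodes a subunit of cytochrome c oxidase. XH7 is diploid, with xylose isomerase placed at PHO13 and at delta sequences, and with the same kind of GRE3 insertion and xylulokinase overexpression. The study's text derives XH7 from a diploid found on tropical fruit, while the labels name a CEN.PK origin. Both strains had been evolved on xylose, so every group shared xylose isomerase, xylulokinase, the altered GRE3 locus and this evolution. The labels give a change at PHO13 for XH7 only, while the study's text describes GRE3 and PHO13 as deleted in both strains. X stage cells were collected at 12 h from medium with 20 g/L xylose. GX stage cells were collected at 14 h from medium that had started with glucose and xylose, each at 20 g/L, after the glucose was gone. Each strain and stage had 2 libraries from separate fermentations. Sampling time and the earlier glucose cannot be told apart in the stage comparison, nor can ploidy, the COX4 deletion and other genetic differences in the strain comparison. In bulk RNA, a smaller number of expressing cells and less RNA per cell cannot be told apart either.

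Hydrophilins are small, glycine-rich and very water-loving proteins that accumulate when cells lose water, and several of them help yeast to survive drying. When yeast runs out of glucose it passes the diauxic shift and later enters stationary phase, and it then switches on a broad set of protective genes. Much of this set is read by the transcription factors Msn2 and Msn4, which bind the stress response element (STRE). Protein kinase A signalling, which is high on glucose, keeps these factors out of the nucleus, and the kinase Rim15 and the factor Gis1 act at the post-diauxic shift (PDS) element in the same programme.

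The DNA before the genes was read from the RefSeq S288C genome (build R64), which may differ from the sequence of these strains. STRE was searched as AGGGG, PDS as TNAGGGAT, the heat shock element as TTCNNGAA and the CRE-like element of the Hog1 pathway as TGACGT, each on both strands. The PDS letters allow any base at the second position, where the usual element has A or T, so a match need not be the usual element. The stretches shown are those with the densest STRE matches, the single match of the PDS letters, and a STRE match before STF2, the gene whose level varied least over strain and stage. They are on the gene's strand from 5′ to 3′, with the searched element in capitals. CCCCT is AGGGG read on the opposite strand, and ATCCCTCA is a PDS match on the opposite strand.
SIP18, STRE, chrXIII:610616-610665, + strand: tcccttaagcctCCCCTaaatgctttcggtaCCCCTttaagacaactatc
SIP18, PDS, chrXIII:610864-610903, + strand: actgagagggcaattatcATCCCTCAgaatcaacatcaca
HSP12, STRE, chrVI:106811-106890, + strand: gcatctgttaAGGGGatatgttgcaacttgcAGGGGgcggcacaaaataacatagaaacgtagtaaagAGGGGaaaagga
DDR2, STRE, chrXV:231916-232015, - strand: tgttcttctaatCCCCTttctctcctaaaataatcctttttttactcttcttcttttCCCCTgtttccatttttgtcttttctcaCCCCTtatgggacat
SPI1, STRE, chrV:468094-468133, + strand: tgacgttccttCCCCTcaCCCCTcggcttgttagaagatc
STF2, STRE, chrVII:508626-508655, - strand: aatatacgcggAGGGGgggaggaaaacctc

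In the 500 bases before the start codon, 6 of the 10 genes had at least 1 STRE match, and the same 6 had at least 2. HSP12 had 5 matches, DDR2 had 4, RTC3 and SPI1 had 3 each, and SIP18 and STF2 had 2 each. Over 6000 genes with such a window, 34.1% held at least 1 match and 8.1% at least 2. GRE1, SPG1, SPG4 and YRO2 held none of these letters in the window. In the shorter window from 250 bases before to 50 bases after the start of the coding sequence, 4 of the 10 had a match, against 21.6% of windows. The PDS letters were matched before SIP18 only, at −134 relative to the start codon, against 4.0% of the 500-base windows. This match has G at the second position, so none of the 10 genes had the usual PDS element in the window. The CRE-like element was matched before HSP12 and SPI1, where it forms the first 6 letters of the SPI1 stretch, and the heat shock element before SPG4 and SPI1. Of all 500-base windows, 13.5% held the CRE-like element and 21.2% the heat shock element, so 2 of 10 genes for each is near these shares. The HSP12 stretch overlaps the annotated gene YFL015C on the opposite strand, and the other stretches overlap no annotated gene. A match of a short element is a description of the sequence and not evidence of binding.

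**Figure D1:**
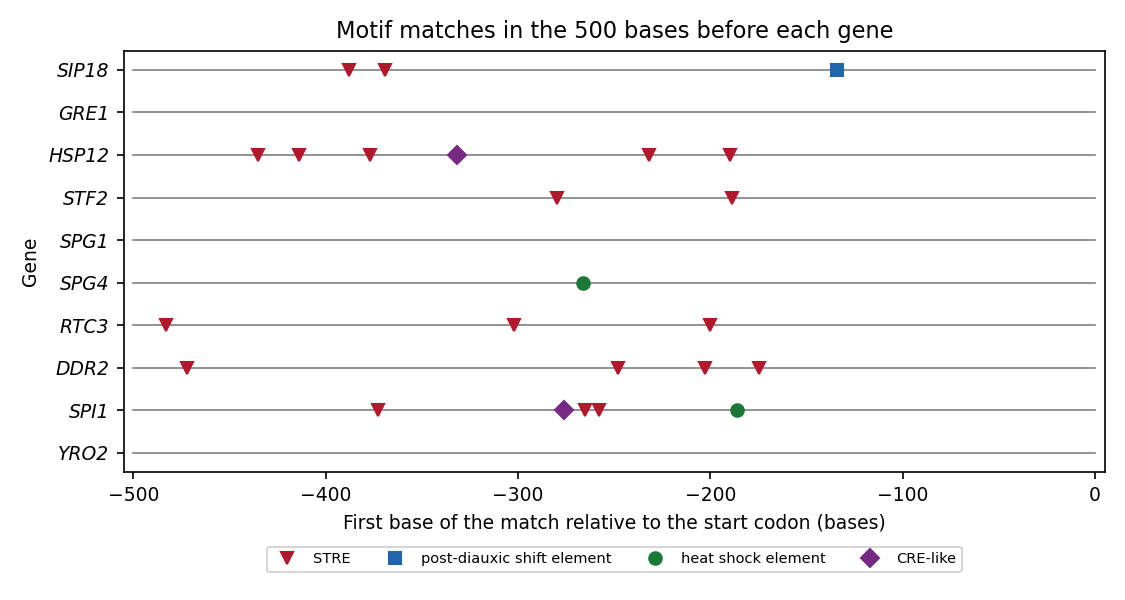
Matches of 4 short elements in the 500 bases before the start codon of each gene, with the first base of each match on the horizontal axis in bases relative to the start codon and 1 row per gene. STRE matches (red triangles) are found before 6 of 10 genes, with 5 before HSP12, and rows with no symbol had no match.

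Libraries held between 5279864 and 7675099 counts. COX4 was at 0 counts in the 4 BSGX001 libraries and at 1186 to 2680 in the XH7 libraries, so the strain labels and the libraries go together at this gene. GRE3 had 145 to 492 counts and PHO13 245 to 1041 in all 8 libraries, so reads were assigned to both genes against their description as deleted, and what was left of these loci is not given in the sources used here. Levels are given as FPKM (fragment numbers scaled to gene length and to library size), the values the authors deposited, with replicate 1 before replicate 2. Set against the counts, these values correspond to gene lengths shortened by 43.3 to 56.2 bases, which matters most for short genes such as DDR2. Changes and differences are log2 ratios from the edgeR fit to the counts of all 8 libraries, with n = 2 per group. The value after ± is an approximate standard error (SE), back-calculated as the size of the ratio divided by the square root of the F statistic of its test. It can be smaller than counting error where a group has few reads, as for SPG1 in XH7. A gene passed at a p-value of 0.05 or less after Benjamini-Hochberg adjustment over all genes, and was called when the change was also at least 2-fold.

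Together the 10 genes took up 0.0942% ± 0.0186 (SD, n = 2) of all counts in the BSGX001 X stage and 0.402% ± 0.001 after glucose. In XH7 they took up 0.0268% ± 0.0008 and 0.0322% ± 0.0077. In BSGX001, 9 of the 10 genes were called higher in the GX stage, where 6.77% of all genes tested were. In XH7, GRE1 and SPG4 were called higher, where 6.57% of all genes were, and YRO2 was called lower, where 5.88% were. Across the 10 genes the median log2 ratio of the stages was 2.05 in BSGX001 and 0.08 in XH7, against −0.02 and 0.04 over all genes tested.

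**Figure D2:**
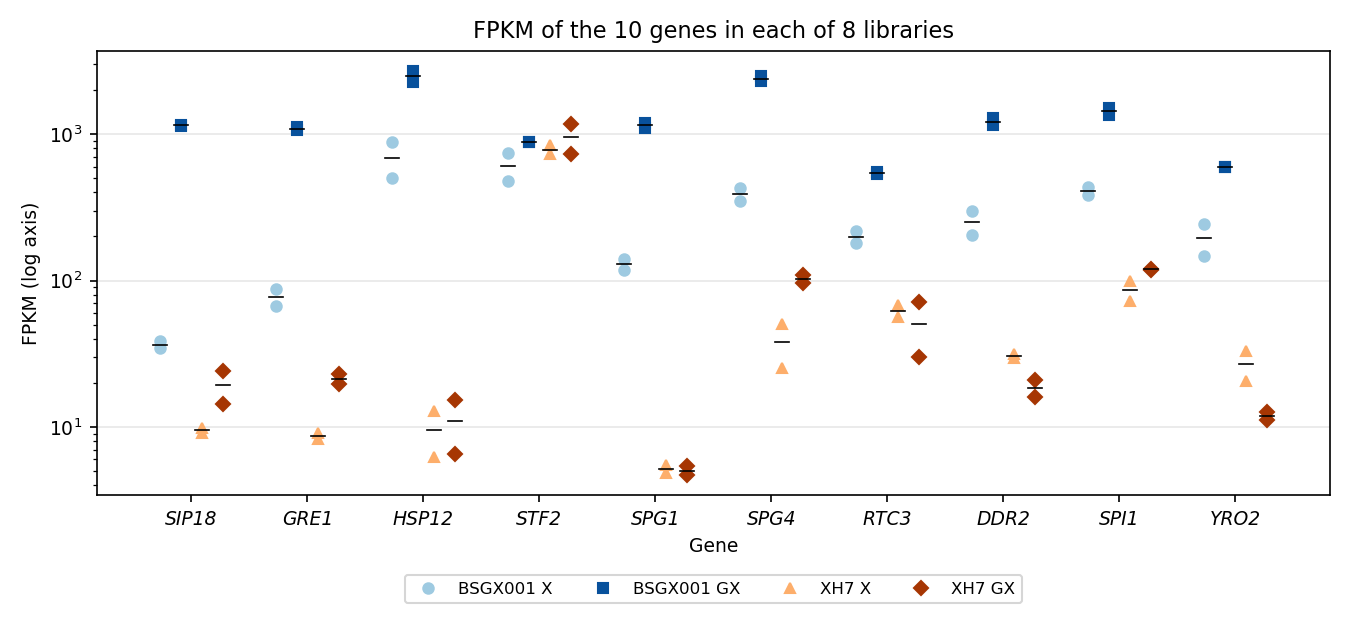
FPKM on a log axis for each of the 10 genes in each of the 8 libraries. Each symbol is 1 library, the short bar is the mean of the 2 libraries of a group, and 9 of the 10 genes, all but STF2, have every XH7 library below every BSGX001 library, as do 28.7% of all genes tested.

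SIP18 and GRE1 encode hydrophilins that are induced by osmotic stress and drying, and they are paralogs from the ancient duplication of the yeast genome. SIP18 (YMR175W, chrXIII:611016-611255, + strand) had FPKM values of 34.6 and 38.4 at the X stage and 1159 and 1145 at the GX stage of BSGX001. In XH7 its values were 9.84 and 9.11 at the X stage and 24.2 and 14.4 at the GX stage, from 10 to 29 reads per library. The stages did not overlap in either strain, but the highest XH7 library lay below the lowest BSGX001 library. The log2 ratio of the stages was 4.96 ± 0.14 in BSGX001, which is 31.2-fold, and 0.84 ± 0.31 in XH7. The XH7 value did not pass. It passed at 1.13 without replicate 2 of the XH7 GX stage and was 0.40 at the other end of the range over left-out libraries.

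GRE1 (YPL223C, chrXVI:128632-129138, - strand) followed SIP18 closely, with a correlation of log2 CPM (counts scaled to library size) of 0.98 across the 8 libraries. Its FPKM values in BSGX001 were 66.8 and 88.1 at the X stage and 1061 and 1124 at the GX stage. XH7 libraries had 9.04 and 8.28, then 22.9 and 19.6. Here the stage ratio was 3.80 ± 0.14 in BSGX001, or 14-fold, and 1.10 ± 0.23 in XH7, with no overlap of the stages in either strain. The XH7 ratio was just under 2-fold, at 0.98, without replicate 1 of the GX stage. Over their aligned coding sequence of 234 bases, SIP18 and GRE1 shared 71.4% of bases, and neither had a near-identical copy in the reference that could share its reads.

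HSP12 (YFL014W, chrVI:107256-107585, + strand) encodes a small heat shock protein and hydrophilin that associates with membranes and is among the classic Msn2 and Msn4 targets. BSGX001 had 499 and 882 FPKM at the X stage and 2276 and 2705 at the GX stage. XH7 had 12.7 and 6.22 FPKM at the X stage and 15.3 and 6.53 at the GX stage. It ranked 47th of 6170 genes by mean FPKM in the GX stage of BSGX001 and 5409th in that of XH7. The BSGX001 stages did not overlap, and the XH7 stages did. Its log2 stage ratio was 1.84 ± 0.26 in BSGX001 and 0.08 ± 0.62 in XH7. Only 10 to 27 reads per library were counted for it in XH7, and 10 reads have an exact 95% Poisson interval of 4.8 to 18.39, which covers counting error only. Without replicate 2 of the X stage the XH7 ratio was −0.39, and without replicate 1 of the GX stage it was −0.68.

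STF2 (YGR008C, chrVII:508110-508364, - strand), a hydrophilin first described as a stabiliser of the inhibited mitochondrial ATP synthase and later found to protect cells during drying, stood apart from the others. BSGX001 had 477 and 739.8 FPKM at the X stage and 887 and 888 at the GX stage. In XH7 the values were 727 and 844, then 1179 and 731. The stage ratio was 0.53 ± 0.24 in BSGX001 and 0.07 ± 0.24 in XH7, and neither passed. In BSGX001 the ratio passed at 0.87 without replicate 2 of the X stage, and at 0.53 without replicate 1 or replicate 2 of the XH7 GX stage, which enter through the shared spread. It also passed with the DESeq2 Wald test (0.55) and with each strain fitted alone (0.56), and did not pass at 0.28 without replicate 1 of the X stage. Levels in the 4 groups were close, with ranks by mean FPKM between 251 and 373, and the XH7 GX libraries spanned those of the BSGX001 GX stage. Across libraries its correlation of log2 CPM with the other 9 genes was between −0.44 and −0.04, while those 9 correlated with each other at 0.83 to 0.99. These 8 points share strain and stage, so the correlations mainly describe the group levels.

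SPG1 and SPG4 were named for a need in survival at high temperature during stationary phase, and the work each protein does is poorly known. SPG1 (YGR236C, chrVII:962530-962817, - strand) had 141 and 117 FPKM at the X stage and 1199 and 1100.3 at the GX stage of BSGX001. In XH7 it stayed at 5.51 and 4.87, then 4.67 and 5.38. All 4 XH7 libraries held 7 or 8 reads of it, and 7 reads have a Poisson interval of 2.81 to 14.42. The stage ratio was 3.14 ± 0.12 in BSGX001 and −0.25 ± 0.43 in XH7, so a moderate change in XH7 was not detectable at this depth.

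SPG4 (YMR107W, chrXIII:483014-483361, + strand) had 429 and 351 FPKM at the X stage and 2492 and 2310.2 at the GX stage of BSGX001. XH7 values were lower at 50.4 and 25.3, then 95.85 and 109.9. Unlike SPG1 it was called higher in the GX stage of both strains, as were 1.76% of all genes tested. Its stage ratio was 2.60 ± 0.20 in BSGX001 and 1.27 ± 0.25 in XH7. The XH7 ratio was below 2-fold at 0.83 without replicate 2 of the X stage and 1.75 at the other end of the range over left-out libraries.

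RTC3 encodes a protein related to the ribosome maturation factor SBDS and linked to RNA metabolism, and DDR2 a small protein induced by DNA damage and by many other stresses. RTC3 (YHR087W, chrVIII:280820-281155, + strand) had 182 and 216 FPKM at the X stage and 533 and 552 at the GX stage of BSGX001, a log2 ratio of 1.43 ± 0.21. Its XH7 libraries gave 67.6 and 56.3, then 71.0 and 30.1, a ratio of −0.47 ± 0.30 that did not pass, with overlapping stages. It was −1.24, past the threshold, without replicate 1 of the GX stage and −0.01 without replicate 2.

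DDR2 (YOL052C-A, chrXV:231570-231755, - strand) gave 204 and 299 FPKM at the X stage and 1287 and 1149 at the GX stage of BSGX001. In XH7 it gave 31.35 and 29.35, then 20.8 and 15.97, from 12 to 28 reads per library. The BSGX001 ratio was 2.27 ± 0.16. The XH7 ratio of −0.92 ± 0.38 did not pass, although the stages did not overlap, and it passed with the DESeq2 Wald test (−0.97). It passed without replicate 1 (−0.95) or replicate 2 (−0.92) of the BSGX001 X stage.

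SPI1 and YRO2 encode proteins of the cell surface. SPI1 is a GPI-anchored cell wall protein that contributes to resistance to weak acids. SPI1 (YER150W, chrV:468370-468816, + strand) had 387 and 434 FPKM at the X stage and 1354 and 1511 at the GX stage of BSGX001, a ratio of 1.79 ± 0.13. XH7 libraries had 98.9 and 72.5, then 121 and 119, a ratio of 0.29 ± 0.14 that did not pass. Without replicate 1 of the XH7 X stage this ratio was 0.46 and without replicate 2 it was 0.08, and neither passed. SPI1 was the most highly expressed of the 10 genes in XH7 after STF2, at ranks 1800 and 1615 in the X and GX stages.

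YRO2 (YBR054W, chrII:343101-344135, + strand) is a plasma membrane protein related to bacterial rhodopsins and to Hsp30 and contributes to tolerance of acetic acid. It moved in opposite directions in the strains. BSGX001 had 146 and 242 FPKM at the X stage and 597 and 595 at the GX stage, a ratio of 1.60 ± 0.23. XH7 had 33.2 and 20.6, then 12.5 and 11.1, a ratio of −1.36 ± 0.30. Only 11 of the 5921 genes tested, 0.186%, were called higher in BSGX001 and lower in XH7, and YRO2 was among them.

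**Figure D3:**
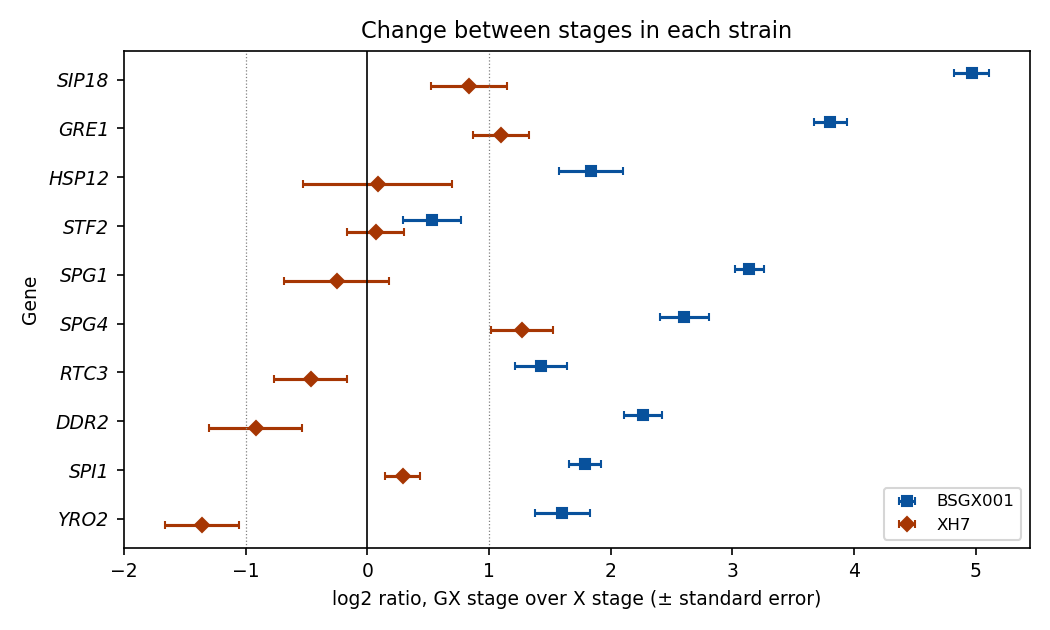
Log2 ratio of the GX stage over the X stage for each gene, with BSGX001 as squares and XH7 as diamonds. Bars are ± 1 approximate standard error, and dotted lines mark a 2-fold change. The ratios run from 0.53 to 4.96 in BSGX001 and from −1.36 to 1.27 in XH7, where 4 genes lie below 0.

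By mean FPKM in the GX stage of BSGX001 the order was HSP12, SPG4, SPI1, DDR2, SIP18, SPG1, GRE1, STF2, YRO2 and RTC3. The ranges of the neighbours HSP12 and SPG4 overlapped, as did those of DDR2 and SIP18, of SIP18 and SPG1, and of SPG1 and GRE1, so these neighbours did not differ beyond their spread. In the X stage SIP18 was the lowest of the 10 at rank 3930, and in the GX stage it ranked 181st of all genes.

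The spread between replicates was uneven. In the X stage of BSGX001, replicate 2 lay above replicate 1 by 0.80 on the log2 CPM scale for HSP12, 0.72 for YRO2, 0.60 for STF2 and 0.51 for DDR2, where the median gap over all genes was 0.16. In the GX stage of XH7, replicate 1 lay above replicate 2 by 1.21 for RTC3, 1.10 for HSP12 and 0.68 for both SIP18 and STF2, against a median gap of 0.17. In the X stage of XH7, replicate 1 lay above replicate 2 by 0.91 for SPG4, 0.88 for HSP12, 0.63 for YRO2 and 0.39 for SPI1, against a median gap of 0.12. In the GX stage of BSGX001 the largest gap of the 10 was 0.23, against a median of 0.08.

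The stage change was then compared between the strains as the XH7 change minus the BSGX001 change. It was lower in XH7 for all 10 genes, and 8 of 10 passed, where 14.2% of all genes tested passed in that direction. The difference was −4.13 ± 0.41 for SIP18, −3.39 ± 0.48 for SPG1, −3.19 ± 0.41 for DDR2 and −2.96 ± 0.38 for YRO2. Those of GRE1, RTC3, SPI1 and SPG4 lay between −2.71 and −1.33. SPG4 did not pass without replicate 1 of the XH7 X stage, at −0.88. HSP12, at −1.75 ± 0.68, did not pass, and it did so at −2.20 without replicate 2 of the BSGX001 X stage. STF2 had a difference of −0.46 ± 0.33 and did not pass.

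Between the strains in the X stage, 9 of the 10 genes were called lower in XH7, where 9.32% of all genes tested were. The largest log2 difference, XH7 minus BSGX001, was −5.91 ± 0.40 for HSP12, a 59.9-fold lower level. SPG1 differed by −4.30, SPG4 by −3.08, GRE1 by −2.85, DDR2 by −2.69 and YRO2 by −2.57. SPI1, SIP18 and RTC3 differed less, by −1.96 to −1.37. STF2 was 0.71 ± 0.24 higher in XH7, under the 2-fold limit, and did not pass without replicate 1 of the BSGX001 X stage (0.47) or replicate 2 of the XH7 X stage (0.60).

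In the GX stage the same 9 genes were called lower in XH7, where 13.2% of all genes were, and the distances were wider. SPG1 was 206-fold lower at −7.69 ± 0.19 and HSP12 202-fold lower at −7.66 ± 0.39. The SPG1 ratio rests on 7 reads in each XH7 library of this stage, with a 95% Poisson interval of 2.81 to 14.42 per library. Its SE is smaller than this counting error, so the ratio is less precise than the SE says. DDR2 differed by −5.88, SIP18 by −5.73, GRE1 by −5.55 and YRO2 by −5.54, and SPG4, SPI1 and RTC3 by −4.42 to −3.27. STF2 differed by 0.25 ± 0.23 and did not pass. The stage and strain comparisons share libraries, so they are not separate observations. Reads of both strains were assigned to the same gene set, and sequence differences between the strains at these genes were not examined. The gene names of that set carry a CEN.PK suffix, the laboratory lineage of BSGX001. Whether this lowered the XH7 counts was not tested.

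**Figure D4:**
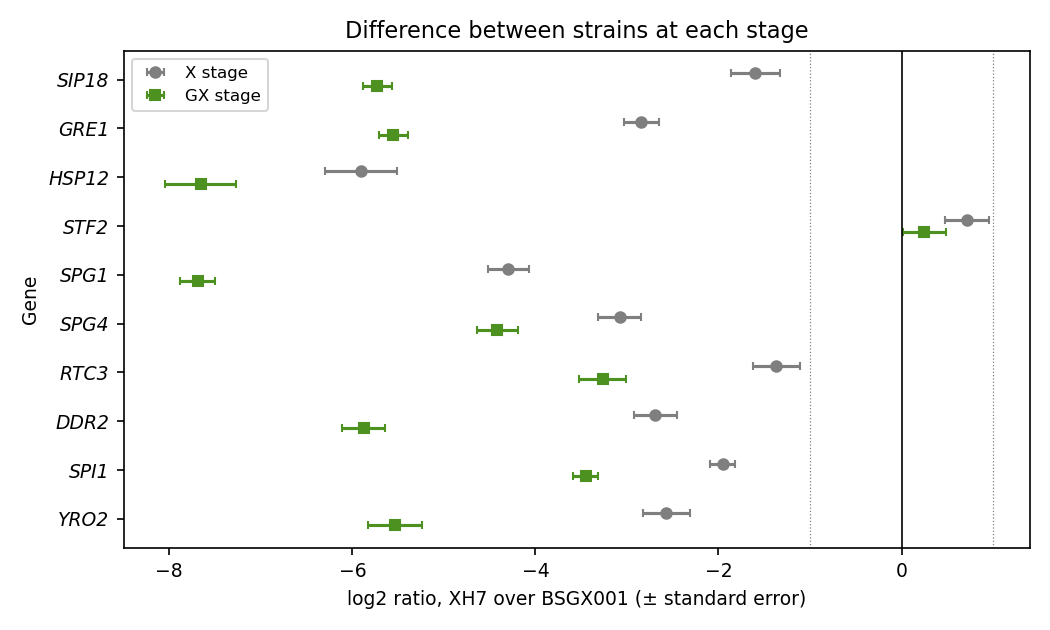
Log2 ratio of XH7 over BSGX001 for each gene in the X stage (circles) and the GX stage (squares). Bars are ± 1 approximate standard error, and dotted lines mark a 2-fold difference. For 9 of 10 genes both symbols lie to the left of the 2-fold line, from −1.37 for RTC3 in the X stage to −7.69 for SPG1 in the GX stage, while STF2 lies to the right of 0 at both stages.

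The paralogs of the 10 genes outside the set were tested, as 1 of the lists drawn up with earlier results of these data known. The stage change of TMA10, the ribosome-associated partner of STF2, was 1.23 ± 0.13 in BSGX001 (adjusted p = 1.62e-04) and 1.31 ± 0.13 in XH7 (adjusted p = 7.68e-05) by edgeR. It rose from 434 to 1015 CPM in BSGX001 and from 1171 to 2914 CPM in XH7, and these changes did not pass a test of their difference (0.09 ± 0.19, adjusted p = 0.75). TMA10 was higher in XH7 in the X stage by 1.43 ± 0.13 (adjusted p = 3.46e-05).

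HOR7, a small stress protein and the partner of DDR2, changed by −0.03 ± 0.12 in BSGX001 (adjusted p = 0.846) and fell by 0.79 ± 0.14 in XH7 (adjusted p = 0.00155), with edgeR as above. SED1, an abundant cell wall GPI protein of stationary phase and the partner of SPI1, rose by 0.92 ± 0.13 in BSGX001 (adjusted p = 6.76e-04) and by 0.68 ± 0.13 in XH7 (adjusted p = 0.00262). MRH1, the membrane protein partner of YRO2, fell in both strains, by 0.90 ± 0.15 in BSGX001 (adjusted p = 0.00145) and by 1.27 ± 0.18 in XH7 (adjusted p = 4.91e-04), so it fell in BSGX001 while YRO2 was higher. Like YRO2 it was lower in XH7 in the X stage, by −3.87 ± 0.18 (adjusted p = 7.15e-07).

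**Figure D5:**
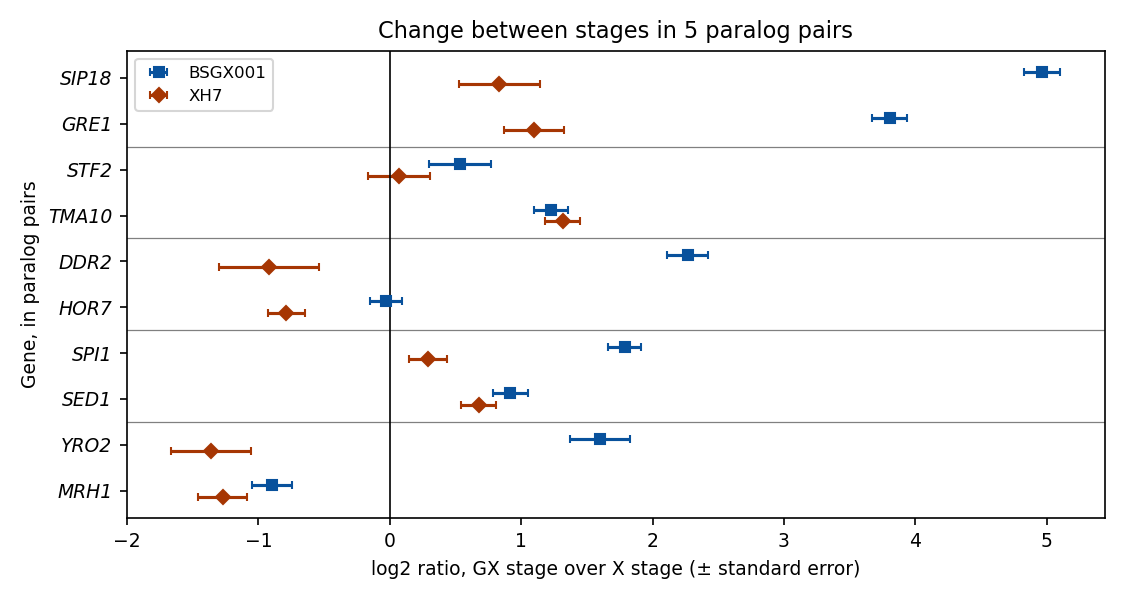
Log2 ratio of the GX stage over the X stage in 5 pairs of paralogs, with BSGX001 as squares and XH7 as diamonds. Bars are ± 1 approximate standard error. In BSGX001 the 2 members of the pairs DDR2 and HOR7, and YRO2 and MRH1, lie far apart, at 2.27 and −0.03 and at 1.60 and −0.90, and SIP18 and GRE1 lie at 4.96 and 3.80.

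Known regulators of this programme were examined at the RNA level. This list and those below were drawn up with earlier results of these data known, so their counts and shares are a description. Of 14 listed regulators, 10 rose, 1 fell and 3 did not pass in BSGX001, and 4 rose, 3 fell and 7 did not pass in XH7. These are 78.6% and 50% passing, where 47.7% and 48.7% of all genes passed. USV1, a zinc finger factor used on non-fermentable carbon, rose most in BSGX001, by 1.45 ± 0.16 (adjusted p = 1.89e-04 by edgeR), and was the only one called. MSN4 rose by 0.80 ± 0.14 (adjusted p = 0.00139) while MSN2 fell by 0.64 ± 0.10 (adjusted p = 0.00116). XBP1, a stress-induced repressor of the cell cycle, rose by 0.74 ± 0.10 (adjusted p = 4.58e-04), RPH1 by 0.60, IGO2 by 0.63, YAK1 by 0.52, HSF1 by 0.45, RIM15 by 0.44, GIS1 by 0.34 and HOT1 by 0.28. The Hog1 kinase gene HOG1 (−0.22 ± 0.10), SKO1 (−0.20 ± 0.12) and IGO1 (0.17 ± 0.11) did not pass.

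In XH7 the kinase gene YAK1 fell by 0.71 ± 0.17 (adjusted p = 0.00779 by edgeR), SKO1 by 0.61 and MSN2 by 0.32. IGO1 and IGO2, small inhibitors of a phosphatase downstream of Rim15, rose by 0.71 and 0.69, RPH1 by 0.40 and RIM15 by 0.33. The values of those that did not pass were 0.12 for MSN4, 0.13 for USV1, −0.34 for XBP1, −0.02 for GIS1, 0.11 for HSF1, 0.16 for HOG1 and −0.24 for HOT1. Between the strains in the X stage, XBP1 was lower in XH7 by −1.97 ± 0.12 (adjusted p = 3.19e-06) and MSN4 higher by 1.46 ± 0.14 (adjusted p = 3.54e-05), the latter opposite in direction to 9 of the 10 genes.

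Other listed genes of stationary phase and quiescence were mostly higher after glucose in BSGX001. Of 14 tested, 13 rose and 1 did not pass in BSGX001, with a median log2 ratio of 1.80, and 7 rose, 1 fell and 6 did not pass in XH7, with a median of 0.62. These are 92.9% and 57.1% passing, against 47.7% and 48.7% of all genes tested. SSA3, a heat shock chaperone of the Hsp70 family, rose by 3.71 ± 0.18 in BSGX001 (adjusted p = 3.62e-06), from 178 to 2329 CPM, and its XH7 value was −0.30 ± 0.19 (adjusted p = 0.212). RGI2, a gene of energy metabolism under respiratory growth, rose by 2.76 in BSGX001 and 1.08 in XH7. HBT1 rose by 1.97 ± 0.12 in XH7 (adjusted p = 8.78e-06) and 1.59 in BSGX001, and SPG5, a proteasome regulator of stationary phase, by 1.47 in XH7 and 0.93 in BSGX001. The small heat shock protein gene HSP26 rose by 2.15 ± 0.45 in BSGX001 (adjusted p = 0.00392) and fell by 2.82 ± 0.54 in XH7 (adjusted p = 0.00229), from 65.3 to 9.12 CPM.

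Most of the listed targets of Msn2 and Msn4 differed between the strains in their stage change. Of 25 tested, 19 rose, 1 fell and 5 did not pass in BSGX001, and 3 rose, 10 fell and 12 did not pass in XH7, or 80% and 52% passing against 47.7% and 48.7% of all genes. The stage change was lower in XH7 than in BSGX001 for 20 of these 25 and higher for 0, where 14.2% and 15.4% of all genes tested passed in these directions, with a median difference of −1.31 against 0.05 over all genes. Of the 25 genes, 5 did not pass this test. GRE3, whose locus was altered in both strains, was the 1 that fell in BSGX001. It was also among those that fell in XH7 and those with a lower stage change in XH7. The cytosolic catalase gene CTT1 rose by 2.11 ± 0.16 in BSGX001 (adjusted p = 2.43e-05) and changed by −0.06 in XH7. The glycogen phosphorylase gene GPH1 fell by 1.58 ± 0.32 in XH7 (adjusted p = 0.00331) with a value of 0.62 in BSGX001 that did not pass, and the mitochondrial peroxiredoxin gene PRX1 rose by 1.06 in XH7 and 0.996 in BSGX001. This list shares 8 of its 30 genes with other lists.

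Of 14 Hog1 pathway targets tested, 8 rose, 1 fell and 5 did not pass in BSGX001, and 5 rose, 6 fell and 3 did not pass in XH7, which is 64.3% and 78.6% passing against 47.7% and 48.7% of all genes. The transaldolase-like gene NQM1 rose by 2.41 ± 0.13 in BSGX001 (adjusted p = 4.99e-06) and 0.96 in XH7. PAI3, an inhibitor of the vacuolar protease A, rose by 1.72 in BSGX001 and 1.02 in XH7. GRE3 fell by 0.37 in BSGX001 and 1.16 in XH7, as reads assigned to a gene whose locus was altered in both strains. Other hydrophilin and desiccation genes were mixed, with 3 of 7 risen, 1 fallen and 3 not passing in BSGX001 and 3 risen, 0 fallen and 4 not passing in XH7. Their shares passing, 57.1% and 42.9%, were near the 47.7% and 48.7% of all genes. Among them ROQ1, a stress-induced hydrophilin that redirects the ubiquitin ligase Ubr1, rose by 1.45 ± 0.15 in BSGX001 (adjusted p = 1.17e-04) and 1.20 ± 0.22 in XH7 (adjusted p = 0.0017).

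Features of the coding sequence were read from the reference genome, without use of the expression values. Small size and much glycine help define hydrophilins, so for SIP18, GRE1, HSP12 and STF2 these features describe the class and are no separate result. The coding sequences were short, from 186 bp for DDR2 to 1035 bp for YRO2, against a median of 1194 bp over 6001 genes. Glycine codons (GGN) made up 13.1% of the codons of GRE1, 12.66% in SIP18, 11.93% in HSP12 and 11.9% in STF2, against a median of 4.94% over all genes. RTC3 had 10.81% and DDR2 9.84%. SPG1, SPG4 and YRO2 were nearer to the median at 7.37%, 6.96% and 6.4%, and SPI1 lay below it at 4.05%. STF2 had a glycine codon share near that of SIP18, GRE1 and HSP12, and 2 STRE matches. Its level differed little over strain and stage, though it was 0.71 ± 0.24 higher in XH7 in the X stage. Whether these features bear on its level was not tested.

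The genes with the most similar pattern to SIP18, by Pearson correlation of log2 CPM across the 8 libraries, were SAF1 (0.998), CAT8 (0.991), VPS62 (0.991), ACS1 (0.990) and FOX2 (0.989). CAT8 encodes an activator of genes for growth on non-fermentable carbon, ACS1 an acetyl-CoA synthetase and FOX2 an enzyme of fatty acid oxidation. Those closest to SPI1 were PEP1, AQY1, YBR284W, MTC5 and PRM15, with r of 0.994 to 0.996. A correlation takes no account of size, so MTC5 changed by only 0.16 between the stages of BSGX001 while SPI1 differed by 1.79.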

How the data were processed

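The authors extracted RNA, enriched mRNA on oligo(dT) beads and sequenced it with an Illumina HiSeq instrument. For the aligner, counting program and strand setting, the sources used here give no name. Genome build R64 is named in the submitters' processing notes, while the gene names of the deposited values carry a CEN.PK suffix. The deposited table of each sample gives expected counts per gene (estimated fragments, unscaled) and FPKM, which the authors scaled by gene length and library total. The authors' comparison tables, with mean FPKM, log2 ratios and a probability, and their FPKM tables per strain, which repeat the values per sample, were not used.

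Expected counts were rounded to whole numbers, and a gene not listed for a sample was taken as 0. A quasi-likelihood test in edgeR 4.0.16 (R 4.3.3) was fitted once to 4 groups and 8 libraries with TMM scaling and filterByExpr (minimum count 10). Calls are at an adjusted p of 0.05 and 2-fold, and the difference of stage changes between strains at an adjusted p of 0.05. Scripts were tested on simulated data. The p-values rest on the spread between duplicate fermentations, estimated over the 4 groups together and moderated across genes. They do not cover variation between independently derived strains. An exact permutation test of 2 against 2 libraries cannot go below 0.333, so none was run.

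The 10 genes and the 8 gene lists were chosen with earlier results of these data known. Of 99 list genes, 92 were found. Named genes are the 10, their paralogs, all regulators, at most 2 risen and 2 fallen called genes per other list and strain, and the 5 genes most correlated with SIP18 and with SPI1 at a mean log2 CPM of 3 or more. A comparison of protein sequences was planned, but no protein table was used here, and glycine codons were counted instead. The 500-base window was chosen after the shorter window was seen. Alternatives used DESeq2 1.42.0, limma 3.58.1 on log2 of FPKM plus 1 or 0.1, other scalings and filters (CPM of 10 or more in 2 samples), a replicate block, each strain alone and each library left out.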

Additional observations from a re-analysis of the deposited data

Results flagged for a closer look

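The stage change differed between the strains, by the interaction term of the edgeR fit, for 8 of the 10 genes. These genes were chosen with the result known, so the values are descriptive. The change in XH7 minus that in BSGX001, in log2, was −4.13 for SIP18, −3.39 for SPG1, −3.19 for DDR2 and −2.96 for YRO2. It was −2.71 for GRE1, −1.90 for RTC3, −1.5 for SPI1 and −1.33 for SPG4.

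Among the stress and stationary phase genes the same difference was −4.97 for HSP26, −4.01 for SSA3, −2.20 for GPH1, −2.18 for CTT1, −1.68 for RGI2, −1.45 for NQM1 and −0.79 for GRE3, and 0.54 for SPG5, whose stage change was larger in XH7. The GRE3 value is of reads assigned to a locus altered in both strains. For HSP26 the stages changed in opposite directions in the strains, with both changes past the threshold. Among the regulators it was −1.32 for USV1, −1.23 for YAK1, −1.08 for XBP1, −0.68 for MSN4, −0.51 for HOT1 and 0.54 for IGO1. It was −0.75 for HOR7, the paralog of DDR2, −0.75 for IRA2 and −0.54 for PDE1 of the Ras and protein kinase A list, and −1.91 for the cell wall gene TOS6. Adjusted p-values of these non-member genes by edgeR ran from 9.29e-05 for SSA3 to 0.0465 for SPG5. No causes were tested.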

How the results depend on the processing

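In BSGX001, 9 of the 10 genes were called between the stages under every alternative run. The count in XH7 was between 2 and 4 (3 as reported), that of differences between the strains' stage changes between 7 and 9 (8), that in the X stage between 9 and 10 (9), and that in the GX stage 9 throughout. The direction turned for HSP12 in XH7 with the DESeq2 Wald test (−0.0021) and without single libraries (−0.68 to 0.57), for STF2 in XH7 with upper-quartile scaling (−0.013) and without single libraries (−0.32 to 0.37), and for STF2 between the strains in the GX stage (−0.14 to 0.55). None of the turned values passed. Without a limit on fold the genes called over all genes became 2825 in BSGX001, 2882 in XH7, 3287 in the X stage and 3906 in the GX stage. Those with a difference in stage change were 976 to 1992 when single libraries were left out, against 1750. Scaling by library totals moved the median of all genes by 0.20 in XH7 and by −0.29 between the strains in the X stage, and upper-quartile scaling moved it by −0.11 in BSGX001. For SIP18 and SPI1 the XH7 stage change passed with library totals (1.03 and 0.49), and that of DDR2 with upper-quartile scaling (−1.001). That of DDR2 also passed with the DESeq2 Wald test (−0.97), and that of SIP18 with the filter of CPM 10 or more in 2 samples (0.84). In limma on FPKM the XH7 changes of SIP18, DDR2 and SPI1 passed too (0.91, −0.70 and 0.50 with a pseudocount of 1), and the SPG4 difference did not (−1.13). With library totals STF2 did not pass between the strains in the X stage (0.42). The replicate block left 9, 3 and 8 genes called for the stages of BSGX001, of XH7 and for their difference, and 519, 729 and 1590 over all genes. Same-numbered libraries came from separate fermentations, and their deviations correlated at −0.04 in BSGX001 and −0.28 in XH7. With 2 libraries per group these values cannot settle whether the numbers pair them. With the numbers crossed in XH7, added after seeing the data, the block gave 9, 3 and 9 of the 10 genes, and 544, 735 and 1893 over all genes. For the elements, 6 genes in place of 4 had a STRE match in the longer window. The causes were not tested. Counts of 7 to 29 reads per library limit SPG1, HSP12, SIP18 and DDR2 in XH7.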

Other observations

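Genes of the Ras and protein kinase A pathway, which acts upstream of Msn2 and Msn4, were listed for comparison. Of 13 tested, 8 rose, 1 fell and 4 did not pass in BSGX001, and 4 rose, 3 fell and 6 did not pass in XH7. The shares passing were 69.2% and 53.8%, against 47.7% and 48.7% of all genes tested, so the XH7 share was near that of all genes. IRA2, which turns Ras off, rose by 1.54 ± 0.15 in BSGX001 (adjusted p = 8.91e-05 by edgeR) and 0.79 ± 0.15 in XH7 (adjusted p = 0.00241). The cAMP phosphodiesterase gene PDE1 rose by 1.38 in BSGX001 and 0.84 in XH7. RAS1 fell in both strains, by 0.70 in BSGX001 and 1.14 in XH7.

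Other genes of cell wall and secreted proteins were mixed, with 5 of 11 risen, 2 fallen and 4 not passing in BSGX001 and 3 risen, 4 fallen and 4 not passing in XH7. Not all of them encode GPI proteins, and SRL1 and YGP1 on this list do not. In each strain 63.6% passed, against 47.7% and 48.7% of all genes. SRL1 fell by 2.16 ± 0.26 in BSGX001 (adjusted p = 2.63e-04 by edgeR) and by 2.86 ± 0.29 in XH7 (adjusted p = 7.45e-05). TOS6 fell by 2.49 ± 0.36 in XH7 (adjusted p = 4.63e-04), from 21.9 to 3.77 CPM, and its change of −0.58 ± 0.24 in BSGX001 did not pass (adjusted p = 0.0754). PST1 rose by 1.03 in XH7 and 0.59 in BSGX001.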
